A study of Mus musculus with 12 samples.

Results

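The sequences described here are the rows of 23, 24 or 25 nt in a deposited table of mouse testis piRNA sequences, a length just below that of most rows of the table. The rule took every row of those lengths, whatever its level, and found 135355 of 1018402 rows, with 29017 of 23 nt, 41030 of 24 nt and 65308 of 25 nt. Total RNA came from testes of male C57BL/6 mice aged 4 months, and small RNA of 17 to 40 nt was sequenced with 10ng-seq, a library method for small amounts of RNA. The 12 libraries formed 6 groups of 2 technical replicates: 10, 50 and 100 ng of RNA after oxidation with NaIO4, and 10, 50 and 100 ng before it. The labels name no mutant, transgene or drug in any group. The replicates are libraries and not animals, so every p-value measures the spread between libraries and says nothing of differences between mice.

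PIWI-interacting RNAs (piRNAs) are germline small RNAs that guide PIWI proteins, such as MILI and MIWI in the mouse testis, to transposon and other transcripts. They start mostly with U, their 3′ ends are trimmed to the length that the PIWI protein covers, and HENMT1 then adds a 2′-O-methyl group to the last nucleotide. Periodate oxidizes the unmodified 3′ end of RNA, which then cannot be joined to the 3′ adapter, whereas a methylated end resists. An A at base 10 is the mark of piRNAs made by the ping-pong cycle, in which the cut of one piRNA makes the start of its partner.

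The sequences below are from the most abundant members and from those with the highest and the lowest change. The table writes U as T. In the members, printed 5′ to 3′, capitals mark base 1, base 10 and the last base. The 6 named top1 to top6 had the highest mean before oxidation among members with a mean of at least 5 RPM, the authors' normalised read count, over the 12 libraries. Those named up1 to up6 and down1 to down3 are from the highest and the lowest oxidation changes among members that were called and did not overlap at any input. At most 1 member of each group sharing its first 20 bases was named and not every group was eligible, so some members with changes as low as those of down1 to down6 are not shown, and pair2 was the second most abundant member that shares its first 20 bases with a longer row.
top1: TggtgacttCcggaaagccttggaC
top2: TgagaatcaAagatgggaccttgcT
top3: TcacagagaAtcttccagtcagaaC
top4: TagaatttcCggtctggtcacactC
top5: TgcactgtaGgatgcaatgggatT
top6: TgccaggtcTgtagcactccagatA
pair2: TgactgagaGcctcgttctgccC
up1: TgtgcctctGtcaactcttgtttT
up2: TcactatgtAgccctgactagcC
up3: TtgtaaggaTtctttacattttC
up4: TatcaggctTgggatttctctgG
up5: TtctaaggaCagtgctcatacaT
up6: TggtttctgTtgttctttcttgA
down1: TtatggaccAcagggcttatggccT
down2: TagcaacctAggactccacttgacT
down3: TgggaattgAatccaggacttctgG
All 16 start with U, and up1 to up6 are of 23 or 24 nt whereas down1 to down3 are of 25 nt.

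For each of these members the table also holds longer rows of 26 to 32 nt that start with the whole member. The most abundant such row is shown for some members called higher after oxidation and for 3 that were not called higher. The letters past the member's 3′ end, in capitals, differ between them.
longer row of up1: tgtgcctctgtcaactcttgttttTGGAAA
longer row of up2: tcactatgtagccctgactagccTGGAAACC
longer row of up3: ttgtaaggattctttacattttcTGGAT
longer row of up4: tatcaggcttgggatttctctggTGGA
longer row of up5: ttctaaggacagtgctcatacatTGGAGT
longer row of up6: tggtttctgttgttctttcttgaTGGAAGA
longer row of top5: tgcactgtaggatgcaatgggattTGGAAT
longer row of pair2: tgactgagagcctcgttctgcccTGGAATT
longer row of top3: tcacagagaatcttccagtcagaacAAGTC
longer row of top4: tagaatttccggtctggtcacactcATTC
longer row of down3: tgggaattgaatccaggacttctggAA
In the longer rows of up1 to up6, top5 and pair2 the letters after the member begin with TGGA, and in the rows of top3, top4 and down3 they do not. None of the named members matched a GENCODE M21 transcript on either strand, so no position is given for them.

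Before the results, a few facts of the libraries bear on them. Values are RPM as deposited, and the steps between them gave whole reads for 100% of the values within 0.01 read, with 1 read worth 0.299 to 0.520 RPM. The members held 119372 to 163939 reads in each library. The library of replicate 2 at 10 ng after oxidation stood apart. It alone held 79 members of at least 20 RPM that no other library had, and its piRNA total was the lowest after oxidation, 880940 RPM against a mean of 909880 ± 14873 RPM over the 6 libraries after oxidation (SD). The piRNA table as a whole took 909880 RPM after oxidation and 805481 ± 7699.9 RPM before it, while the miRNA table took 303 ± 74.7 RPM after oxidation and 128190 ± 8611 RPM before it (SD, n = 6 each). An RPM value is relative to a total that held fewer miRNA reads after oxidation.

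The 23 to 25 nt sequences together were slightly higher in RPM after oxidation. With 10 ng they summed to 62798 and 62884 RPM after oxidation, against 54649 and 54406 RPM before it. With 50 ng the sums were 50812 and 53144 RPM after oxidation, against 49221 and 48950 RPM before it, and with 100 ng 48981 and 48932 RPM, against 47722 and 47687 RPM. Libraries after oxidation were higher at each input without overlap, and the sum rose 1.08-fold (log2 0.11, exact permutation test of oxidation labels within inputs, two-sided, p = 0.00926, the smallest that the 216 arrangements allow; adjusted over 7 values p = 0.0216). The sign depends on the scale: the sum fell by 2.88 on the log2 scale per read of the methylated spike-ins, and differed by log2 -0.09 as a share of all RPM other than miRNA RPM (exact permutation p = 0.0556).

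As a share of the piRNA table the members made up 6.01 ± 0.781% after oxidation and 6.26 ± 0.344% before it (SD, n = 6 each), a difference that did not pass the exact permutation test (p = 0.130, adjusted 0.181). The share after oxidation minus that before it was 0.289 percentage points at 10 ng, -0.441 points at 50 ng and -0.609 points at 100 ng, each time without overlap of the libraries. Set against the 26 to 32 nt rows, which held 88.7 ± 1.52% of piRNA RPM after oxidation and 87.9 ± 0.218% before it, the members differed by log2 -0.08 (exact permutation p = 0.111). The 23 nt rows made up 0.996 ± 0.167% of piRNA RPM after oxidation and 0.926 ± 0.0511% before it, and the 24 nt rows 1.70 ± 0.175% and 1.71 ± 0.0986%. The 25 nt rows made up 3.31 ± 0.443% after oxidation and 3.62 ± 0.195% before it (exact permutation p = 0.0278, adjusted over the 3 lengths 0.0833). None of the 3 lengths passed the adjusted test. The rows of 20 to 22 nt, the next shorter lengths, did: they rose by log2 0.53 relative to 26 to 32 nt rows, and the members fell by 0.61 on the log2 scale relative to them (exact permutation p = 0.00926 each, adjusted over 5 ratios 0.0231).

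Members differed by the letters that follow them in longer rows. For every member the most abundant row of 28 to 32 nt that starts with the whole member was taken and its next 3 letters were read, which was possible for 89643 members. The triplet was noticed in the longer rows printed above and counted afterwards, so it is described without a test. The members followed by TGG were 4757 rows, 3.51% of the members. With 10 ng they summed to 10032 and 8664 RPM after oxidation, against 3455 and 3227 RPM before it. With 50 ng the sums were 10075 and 10142 RPM after oxidation, against 3634 and 3718 RPM before it, and with 100 ng 9509 and 10834 RPM, against 3738 and 3666 RPM. Every library after oxidation was above every library before it, by 2.76-fold on average (log2 1.48, 1.46 and 1.46 at 10, 50 and 100 ng). The 84886 members followed by other letters summed to 38221 ± 4867 RPM after oxidation and 41049 ± 2710 RPM before it (SD, n = 6 each), 0.927-fold. Members that no such longer row starts with, 45712 rows, summed to 6495 ± 2174 RPM after oxidation and 5818 ± 699.5 RPM before it, and they were higher after oxidation at 10 ng (log2 0.46) and not at 50 or 100 ng (log2 -0.04 and -0.10).

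**Figure D1:**
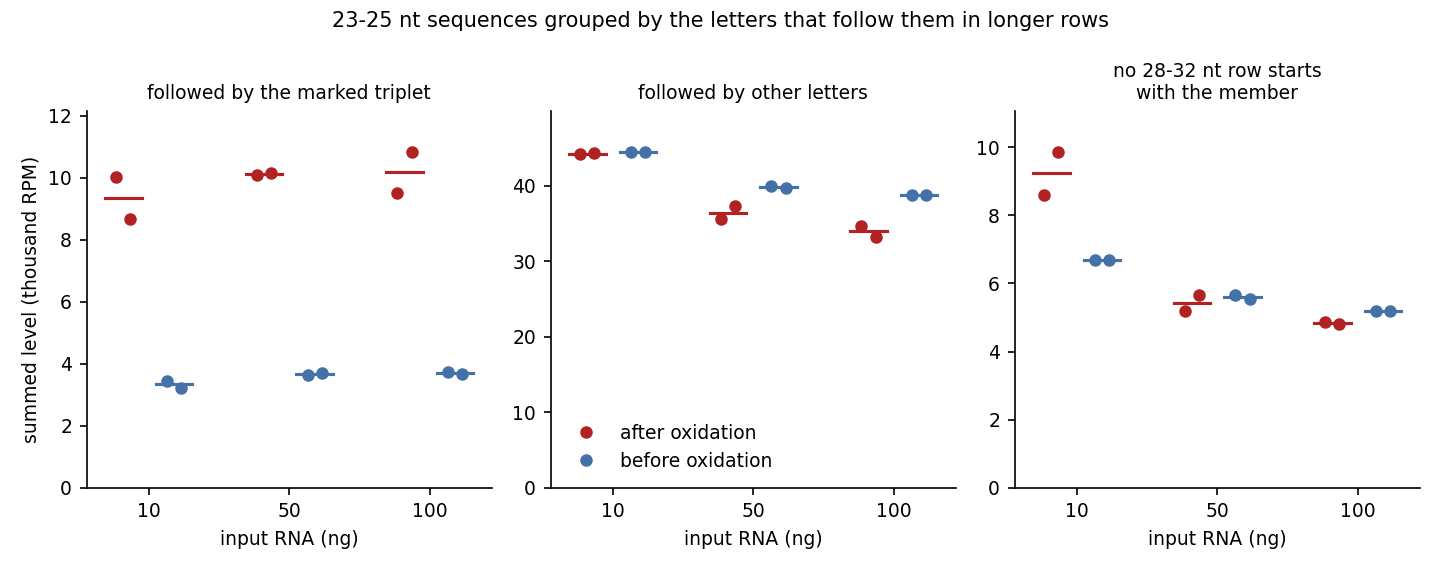
Summed level of the 23 to 25 nt sequences, in RPM (axis scaled to kRPM), by input RNA in ng, in 3 panels: members followed by TGG (the marked triplet) in the most abundant 28 to 32 nt row that starts with them, members followed by other letters, and members with no such row. Each point is 1 of 12 libraries and each line the mean of 2; members followed by the triplet summed to 8664 to 10834 RPM after oxidation and 3227 to 3738 RPM before it.

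Without the members followed by TGG, the remaining 23 to 25 nt sequences were lower relative to 26 to 32 nt rows after oxidation at all 3 inputs. They differed by log2 -0.07 at 10 ng, -0.33 at 50 ng and -0.40 at 100 ng, against the mixed signs of all members together (0.07, -0.13 and -0.18). Their sum was 44716 ± 7002 RPM after oxidation and 46866 ± 3407 RPM before it. By input, this sum was higher after oxidation at 10 ng (log2 0.06) and lower at 50 and 100 ng (log2 -0.12 and -0.18). The triplet was noticed in members chosen for their rise. Leaving its members out lowers the change of the rest, which is therefore no separate result. The members followed by TGG were higher relative to 26 to 32 nt rows, by log2 1.35, 1.24 and 1.23.

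Among the 64 possible triplets TGG had the highest difference. It followed 20.7% of the member RPM that has a longer row after oxidation and 8.05% before it, a difference of 12.7 percentage points, and the triplet with the next highest difference, GGT, differed by 0.120 points. The share followed by TGG was above that of the same triplet at the same position in the 28 to 32 nt rows themselves, 2.35% after oxidation and 2.76% before it, in all 12 libraries. The share was highest in the shortest members: 41.5 ± 4.82% after oxidation and 15.8 ± 1.42% before it at 23 nt, 31.7 ± 5.01% and 11.9 ± 1.72% at 24 nt, and 9.27 ± 0.969% and 4.41 ± 0.325% at 25 nt (SD, n = 6 each). At 20 to 22 nt it was higher still, 61.8 to 74.96% after oxidation and 24.6 to 33.8% before it.

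**Figure D2:**
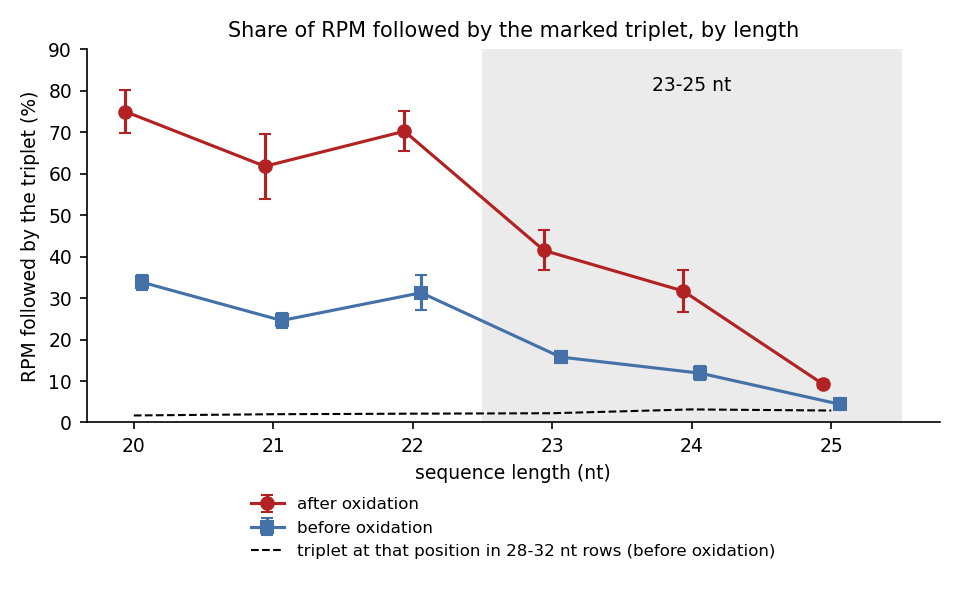
Share of RPM followed by TGG (the marked triplet), in percent of the RPM that has a 28 to 32 nt row starting with it, by sequence length in nt; points are means of 6 libraries with SD, and the dashed line gives the triplet's share at that position in 28 to 32 nt rows before oxidation. At 23 nt the share was 41.5% after oxidation and 15.8% before it, against 2.23% in the longer rows.

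Other letters that start with T did not show this. Members followed by a T that does not lead into TG made up 13.5% of RPM with a longer row after oxidation and 15.3% before it, and those followed by TG but not TGG 6.67% and 7.47%. The letter past the triplet was mostly A: in members of 23 nt followed by TGG, it was A for 85.3 ± 0.976% of RPM after oxidation and 68.7 ± 3.94% before it, against 33.7% and 36.4% where 28 to 32 nt rows hold TGG at that position. At 24 nt it was A for 88.8 ± 1.43% after oxidation and 72.2 ± 6.25% before it. As background, the 3′ adapter of the TruSeq small RNA kit, a library strategy that the labels mention beside 10ng-seq, begins with the letters TGGA. Whether reads of longer RNAs were cut at such letters when adapters were removed was not tested here. The sources used here do not describe adapter removal.

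Single sequences were compared where the mean was at least 5 RPM, which kept 1248 members that held 37.6% of the members' mean RPM. Oxidation was tested with limma on log2(RPM + 1) over all 22726 rows of the table that passed the same filter, with p-values adjusted over all of them (Benjamini-Hochberg). In the average over inputs, 221 members (17.7%) were called higher, against 21.2% of all tested rows, and 308 (24.7%) were called lower, against 22.8%. The median change was log2 -0.31 in members and -0.14 in all tested rows. Over all members both shares lie near those of the table as a whole. By length, 33.6% were called higher at 23 nt, 18% at 24 nt and 14.7% at 25 nt, and 23.6, 25.1 and 24.7% lower. The split moves with the scale: edgeR with TMM on the recovered reads called 144 higher and 426 lower, and scaling to the methylated spike-ins, which moved the median of all tested rows to log2 -2.73, called 5 higher and 1100 lower. Without replicate 1 at 10 ng after oxidation, 306 were called higher and 504 lower. Members whose after and before libraries did not overlap at any input numbered 141 higher (11.3%, against 13.5% of all tested rows) and 144 lower (11.5%, against 10.1%).

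Members called higher at 23 and 24 nt were mostly followed by TGG, and those at 25 nt mostly were not. Of the 219 called higher that have a longer row, 132 (60.3%) were followed by TGG, against 7 of 304 (2.30%) called lower and 71 of 708 (10.0%) not called. At 23 nt these were 40 of 46 called higher and 1 of 33 called lower, at 24 nt 52 of 61 and 2 of 84, and at 25 nt 40 of 112 and 4 of 187. Read from the triplet, 132 of the 210 tested members followed by TGG were called higher and 7 lower, with a median of log2 1.54. Of the 240 followed by another triplet that starts with T, 11 were called higher and 78 lower (median log2 -0.62), and of the 781 followed by A, C or G, 76 were called higher and 219 lower (median log2 -0.48). Without the members followed by TGG, 89 members (8.57%) were called higher and 301 lower of 1038. At 25 nt, 65 of the 533 members followed by A, C or G (12.2%) were called higher and 137 (25.7%) lower. Of all tested rows, 21.2% were called higher and 22.8% lower.

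**Figure D3:**
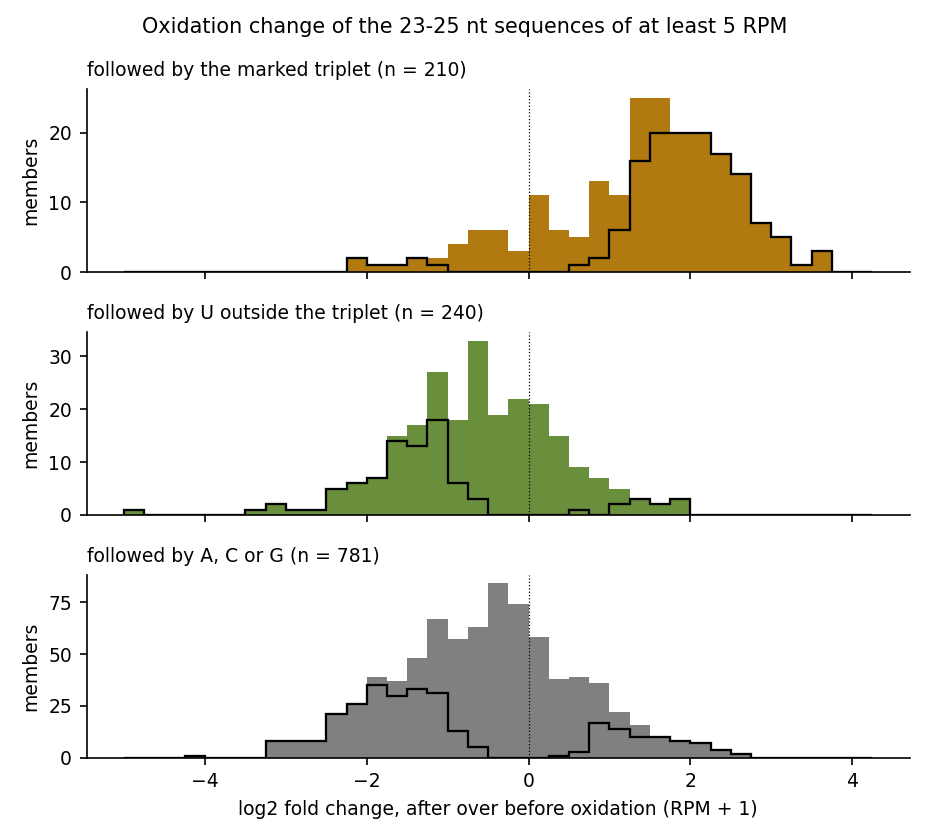
Histograms of the oxidation log2 fold change (after over before, RPM + 1) of tested 23 to 25 nt sequences, in bins of 0.25, in 3 panels by what follows them: TGG (the marked triplet, n = 210), T but not TGG (n = 240), and A, C or G (n = 781). Filled bars are all tested members and the black outline those called by limma; the median is log2 1.54 in the first panel and -0.62 and -0.48 in the others.

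The single sequences with the highest change were low before oxidation, which a choice by that change favours. Their p-values come from the test that was used to choose them. With 10 ng the 24 nt sequence up1 had 83.7 and 57.7 RPM after oxidation, against 4.29 and 0.363 RPM before it. With 50 ng it had 82.7 and 106 RPM after oxidation, against 13.2 and 6.87 RPM before it, and with 100 ng 84.0 and 80.2 RPM, against 11.8 and 5.79 RPM. Every library after oxidation lay above every library before it, and the change was log2 3.68 ± 0.36 (SE, limma adjusted p = 8.38e-05). The longer row of up1 was rare, at 0.681 ± 1.53 RPM after oxidation and 0.841 ± 0.230 RPM before it. The 23 nt sequence up2 had a lowest, median and highest of 8.32, 44.9 and 52.0 RPM after oxidation and 0.776, 1.59 and 4.72 RPM before it (log2 3.68 ± 0.42, limma adjusted p = 0.000174). Its longer row fell, to 0.532 ± 0.588 RPM after oxidation, against 10.6 ± 3.32 RPM before it (log2 -2.97, limma adjusted p = 8.31e-05).

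The sequences up3 to up6 were also low before oxidation. Of up1 to up6, all but up1 and up5 averaged under 5 RPM before oxidation and passed the filter only through the libraries after it. Their low level before oxidation is therefore no separate result. The 23 nt sequence up3 averaged 39.9 ± 13.6 RPM after oxidation and 2.64 ± 1.75 RPM before it, and up4 averaged 27.6 ± 17.0 RPM and 1.59 ± 1.35 RPM (log2 3.64 and 3.40, limma adjusted p = 2.46e-05 and 0.000124). In up5, 91.8 ± 19.2 RPM after oxidation stood against 10.3 ± 4.65 RPM before it, and its longer row was also higher, at 61.1 ± 35.6 RPM after oxidation and 16.8 ± 6.68 RPM before it. In up6, 13.8 ± 3.67 RPM after oxidation stood against 0.824 ± 0.864 RPM before it. Of all RPM whose first 20 bases are those of up1, the member itself made up 96.5% after oxidation and 59.0% before it, and for up2 these shares were 97.1% and 10.9%.

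**Figure D4:**
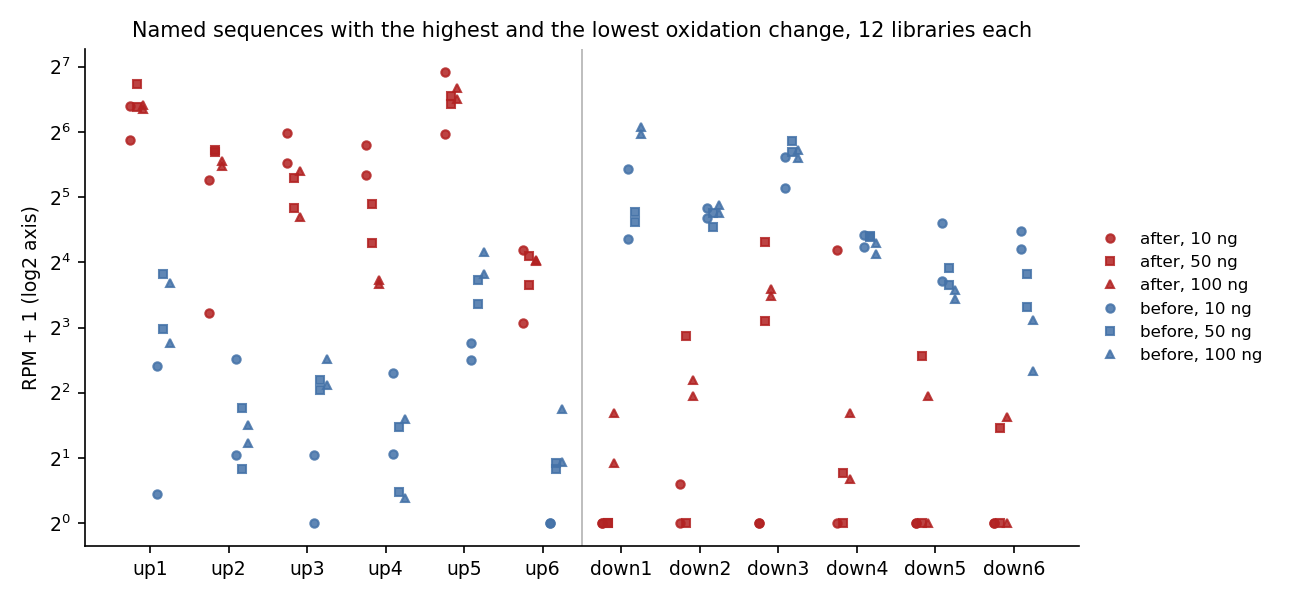
Level in RPM + 1, on a log2 axis, of the 6 named sequences with the highest and the 6 with the lowest oxidation change, as chosen by the naming rule, each in 12 libraries; circles, squares and triangles are 10, 50 and 100 ng. The points of up1 lie between 57.7 and 106 RPM after oxidation and between 0.363 and 13.2 RPM before it, and those of down1 between 0 and 2.21 RPM after oxidation and between 19.6 and 66.1 RPM before it.

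The named sequences down1 to down6 were of 25 nt, but low changes were not limited to that length: the lowest change of a tested member was log2 -3.22 at 24 nt and -4.77 at 25 nt. The sequence down1 had 0 RPM in all 4 libraries of 10 and 50 ng after oxidation, against 42.1, 19.6, 26.4 and 23.6 RPM before it. With 100 ng it had 0.896 and 2.21 RPM after oxidation, against 66.1 and 61.9 RPM before it, and the change was log2 -4.77 ± 0.28 (SE, limma adjusted p = 8.39e-06). Its longer row, which adds 1 T, fell with it to 3.67 ± 3.44 RPM after oxidation, against 49.3 ± 16.1 RPM before it (limma adjusted p = 2.31e-05). The sequence down2 averaged 2.20 ± 2.51 RPM after oxidation and 25.8 ± 2.12 RPM before it, and down3 averaged 7.94 ± 7.21 RPM and 48.3 ± 7.75 RPM (log2 -3.47 and -3.19, limma adjusted p = 0.000350 and 2.79e-05). For down2 the member fell relative to the summed 26 to 32 nt rows of its start, by log2 -2.77 ± 0.48 (limma on the ratio, adjusted p = 0.00536), whereas for down3 the ratio differed by log2 0.44 ± 0.49 (adjusted p = 0.585). The remaining down4 to down6 averaged 0.639 to 3.44 RPM after oxidation and 12.1 to 18.9 RPM before it. All of down1 to down6 but down3 averaged under 5 RPM after oxidation and passed the filter only through the libraries before it. In down4 a single library after oxidation, replicate 2 at 10 ng, held 17.2 RPM while the other 5 held at most 2.21 RPM.

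The most abundant members did not move as 1 group. Before oxidation top1 had the highest mean, 368 ± 127 RPM, and it fell to 133 ± 98.7 RPM after oxidation (log2 -1.83 ± 0.15, limma adjusted p = 3.17e-05). With 10 ng it had 34.2 and 31.7 RPM after oxidation, against 293 and 231 RPM before it. With 50 ng it had 153 and 87.7 RPM after oxidation, against 314 and 324 RPM before it, and with 100 ng 226 and 266 RPM, against 489 and 558 RPM. At each input both libraries after oxidation lay below both before it. The sequence top2 also fell, to 112 ± 35.8 RPM after oxidation, against 288 ± 49.6 RPM before it (log2 -1.40, limma adjusted p = 0.000183), and so did top4, with 153 ± 89.4 RPM after oxidation and 226 ± 20.8 RPM before it (log2 -0.86, limma adjusted p = 0.00124). No call was made for top3, with 300 ± 178 RPM after oxidation and 257 ± 58.9 RPM before it, or for top6, with 135 ± 48.9 RPM and 152 ± 15.2 RPM (limma adjusted p = 0.426 and 0.357), whereas edgeR with TMM called both lower (log2 -0.66 and -0.75, adjusted p = 0.000853 and 0.00895). In top3 the change was log2 -1.34 at 10 ng, and at 50 and 100 ng it was a rise, of log2 0.45 and 0.52. In top4 the change was log2 -2.29 at 10 ng and -0.20 and -0.07 at 50 and 100 ng.

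Only top5 of these 6 was called higher, and only top5 was followed by TGG. With 10 ng it had 457 and 427 RPM after oxidation, against 150 and 115 RPM before it. With 50 ng it had 631 and 683 RPM after oxidation, against 249 and 202 RPM before it, and with 100 ng 725 and 830 RPM, against 273 and 276 RPM. The groups did not overlap at any input, and the change was log2 1.59 ± 0.10 (limma adjusted p = 9.91e-06). It made up 99.1% after oxidation and 94.7% before it of all RPM with its first 20 bases. The 23 nt member pair2, also followed by TGG, averaged 433 ± 76.0 RPM after oxidation and 134 ± 19.5 RPM before it (log2 1.68 ± 0.09, limma adjusted p = 6.29e-06), while its 30 nt row averaged 89.7 ± 48.3 RPM and 130 ± 53.5 RPM (log2 -0.66, limma adjusted p = 0.0128). Scaled to the methylated spike-ins, both were lower after oxidation, by log2 -1.39 in top5 and -1.30 in pair2, and less so than the median tested row at -2.73.

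Most member RPM lay in starts of longer rows. The first 20 bases of 102357 members (75.6%), which held 92.4% of member RPM, were shared with a row of 26 to 32 nt, and all but 336 of these were exact starts of such a row. The share of member RPM with a shared start was 92.0 ± 2.41% after oxidation and 93.1 ± 0.332% before it (SD, n = 6 each; exact permutation p = 0.296). It was 90.1 and 88.0% in the 10 ng libraries after oxidation and 92.6 to 93.7% in the other 10. Members that share no start held less U at base 1, with 53.2 ± 3.25% after oxidation and 56.5 ± 1.73% before it, against 91.1 ± 0.739% and 89.9 ± 0.145% in those that do.

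The change of a member was compared with that of the summed 26 to 32 nt rows of its start in 971 pairs, in a fit added after the data were seen. The ratio of member to longer rows rose in 79 pairs (8.14%) and fell in 94 (9.68%), and its median over all pairs was log2 0.05. Rows of 26 to 28 nt set against rows of 29 to 32 nt of their start gave like shares, 6.68% higher and 9.13% lower of 3802 pairs. Of the 79 whose ratio rose, 42 (53.2%) were followed by TGG, against 4 of 94 (4.26%) whose ratio fell. Over all 971 pairs 141 (14.5%) were followed by TGG, and for 95 of these the ratio was not called. Over all pairs the longer rows were called higher in 189 (19.5%) and lower in 334 (34.4%). Members called higher had longer rows called higher in 69 of 151 pairs (45.7%) and lower in 18 (11.9%), and members called lower had longer rows called higher in 11 of 263 pairs (4.18%) and lower in 159 (60.5%). Across the 971 pairs, which come from 800 starts and share their libraries, the Pearson correlation of the changes was 0.50.

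At the 5′ end most member RPM began with U. U at base 1 held 88.1 ± 1.68% of member RPM after oxidation and 87.6 ± 0.350% before it (SD, n = 6 each; exact permutation p = 0.463). The 10 ng library of replicate 2 after oxidation was the lowest, at 84.8%, and without it the difference was 0.892 points (exact permutation p = 0.00926). A at base 10 fell to 26.7 ± 1.62% after oxidation, against 28.3 ± 0.706% before it, without overlap at any input (exact permutation p = 0.00926, adjusted over 7 values 0.0216). Its mean share was also lower after oxidation at each length of 26 to 32 nt. The change in members minus that in 26 to 32 nt rows was -0.325 points, and it did not pass when adjusted (exact permutation p = 0.0463, adjusted over 6 values 0.0833). The part of member RPM with A at base 10 and no U at base 1 fell to 3.99 ± 0.326% after oxidation, against 4.76 ± 0.106% before it (exact permutation p = 0.00926, adjusted over 4 classes 0.0185), while the part with both, 22.7 ± 1.81% and 23.6 ± 0.628%, did not pass (exact permutation p = 0.0833).

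Within libraries the members differed from 26 to 32 nt rows at both positions. U at base 1 was lower in members, 87.8 ± 1.18% against 89.998 ± 0.732%, and A at base 10 was lower, 27.5 ± 1.47% against 33.7 ± 0.998%, in 12 of 12 libraries (SD; exact sign-flip permutation test over 4096 arrangements, p = 0.000488, the smallest it allows). For base 1 the difference turned to 2.59 points higher in members when only rows of at least 5 RPM were counted. The 26 to 32 nt rows were not alike, and those of 26 nt lay near the members. At 26 nt U at base 1 held 88.5% after oxidation and 88.3% before it, and A at base 10 held 28.3% and 29.5%. At 30 nt these shares were 92.9% and 91.6% for U, and 34.0% and 35.8% for A. The differences are therefore from the pooled longer rows and not from the next length.

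The last base also differed. Members ending in G fell to 13.8 ± 0.314% of member RPM after oxidation, against 16.1 ± 1.03% before it, and those ending in U rose to 29.8 ± 1.93%, against 28.4 ± 1.58% (SD, n = 6 each; exact permutation p = 0.00926 each, adjusted over the 4 bases 0.0185). Ends in C, 36.8 ± 1.86% after oxidation and 35.1 ± 0.280% before it, and ends in A, 19.6 ± 0.588% and 20.3 ± 0.790%, did not pass (exact permutation p = 0.0648 and 0.102). By length, at 23 nt the C end rose to 42.1 ± 1.46% after oxidation, against 37.5 ± 0.716% before it. At 25 nt it rose to 37.4 ± 1.76%, against 34.9 ± 0.717%. The U end rose at 24 nt to 32.3 ± 3.05%, against 27.7 ± 2.33%, and at 23 nt to 25.01 ± 1.03%, against 23.01 ± 1.196%. Each of these rises passed (exact permutation p = 0.00926 each, adjusted over 12 values 0.0139). Ends in U at 25 nt did not rise, with 29.9 ± 1.895% after oxidation and 30.1 ± 1.34% before it (exact permutation p = 0.5). Ends in C at 24 nt did not rise either (exact permutation p = 0.0741). Without the members followed by TGG, ends in C were higher after oxidation at all 3 lengths, with 38.5% after oxidation and 36.0% before it at 24 nt, and the U end at 24 nt was 29.7% and 26.9%. Compared with 26 to 32 nt rows within a library, the share ending in U was lower in members, 29.1 ± 1.83% against 36.7 ± 1.70%, and that in G higher, 14.9 ± 1.41% against 10.1 ± 0.884%, in 12 of 12 libraries (exact sign-flip permutation p = 0.000488). The oxidation change in U ends was 2.58 points higher in members than in 26 to 32 nt rows (exact permutation p = 0.00926, adjusted over 6 values 0.0278). By length, the mean share of U ends also rose at 26, 27 and 28 nt, and it fell at each length of 29 to 32 nt. At 26 nt it was 30.7% after oxidation and 29.5% before it, near that of members, and at 32 nt 54.8% and 57.1%. For C ends the difference from 26 to 32 nt rows was -1.51 points (exact permutation p = 0.00926, adjusted 0.0278). G ends also fell at each length of 26 to 32 nt, and their difference of -0.692 points did not pass (exact permutation p = 0.0556, adjusted 0.0833).

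Fewer distinct members were found after oxidation. With 10 ng there were 5628 and 4081 after oxidation, against 26554 and 25199 before it. With 50 ng there were 17894 and 16838 after oxidation, against 33809 and 38417 before it, and with 100 ng 22106 and 19345, against 37527 and 38099. Libraries after oxidation were lower at every input, and at an equal number of member reads the number fell by 1.37 on the log2 scale (exact permutation p = 0.00926). The 10 ng libraries after oxidation had 24.1 and 29.6 reads per member found, against 3.75 to 8.14 in the other 10. Of all members, 35696 (26.4%) had a single read over the 12 libraries and 518 were found in all 12.

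More members differed between inputs after oxidation than before it, as did more rows of the table as a whole. Between 10 and 100 ng before oxidation limma called 6 members lower (0.481%) and 9 higher (0.721%) at 10 ng. Of all tested rows 0.744% and 1.06% were called, and 93 and 88 members had an unadjusted limma p under 0.05. After oxidation it called 341 members lower (27.3%) and 150 higher (12%), against 28.8% and 12.5% of all tested rows. The interaction of oxidation with input was called in 262 members (21.0%), against 23.1% of all tested rows. These counts moved with single libraries: without replicate 1 at 10 ng after oxidation they were 156 before, 871 after and 660 for the interaction, without replicate 2 there 162, 718 and 523, and without any 1 of the 10 or 100 ng libraries before oxidation limma called 0 members between inputs before oxidation. The 3 members with the smallest interaction p are shown because they were nearly lost in the 10 ng libraries after oxidation alone.
int1: TgagagcctGattctgcaccgagT
int2: TatactgacTccaaatatgcctttA
int3: TccgagcccGggctgcagtatgtC
With 10 ng, int1 had 0.462 and 0 RPM after oxidation, against 42.9 and 34.1 RPM before it, and int2 and int3 had 0 RPM in both libraries after oxidation, against 25.004 and 23.96 RPM and 54.7 and 38.5 RPM before it. With 50 ng, int1 had 39.4 and 38.7 RPM after oxidation, against 20.9 and 28.4 RPM before it, and with 100 ng 28.7 and 41.4 RPM, against 26.6 and 25.6 RPM. Its oxidation change differed by log2 -5.41 between 10 and 100 ng (limma F test adjusted p = 0.000503). The longer row of int2 also continues with TGG, and it averaged 2815 ± 1612 RPM after oxidation and 2333 ± 228 RPM before it (limma adjusted p = 0.924).

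The share of piRNA RPM in members was also lower at higher input, with means of 6.99, 5.66 and 5.37% after oxidation and 6.70, 6.10 and 5.98% before it at 10, 50 and 100 ng (exact permutation of inputs p = 0.0111 each, adjusted over 10 values 0.0185).

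A minority of member RPM matched annotated transcripts. Matches to GENCODE M21 transcripts in the sense direction held 12.9 ± 0.584% of member RPM after oxidation and 14.3 ± 0.261% before it (SD, n = 6 each; exact permutation p = 0.00926, adjusted over 3 values 0.0278), and antisense matches alone 2.00 ± 0.123% and 2.15 ± 0.0447%. Of the 1248 tested members 178 matched, and 22 of these (12.4%) were called higher, against 21.2% of all tested rows, and 42 (23.6%) lower, against 22.8%. The transcript with most tested members was the long non-coding RNA Gm49794 on chromosome 17, with 38 members that summed to 305 RPM after oxidation and 348 RPM before it, 2 called higher and 10 lower. The long non-coding RNA Gm21269 on chromosome 7 held 20 members with 205 RPM after oxidation and 266 RPM before it, none called higher and 6 lower. Gm10505 on chromosome 17 held 12 members with 140 RPM and 121 RPM in its long non-coding transcript. Only 177 members held the first 18 bases of a mature mouse miRNA, 0.271% of member RPM.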

How the data were processed

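Small RNA of 17 to 40 nt from mouse testis was sequenced in 12 libraries after and before NaIO4 oxidation, at 3 inputs with 2 technical replicates. The piRNA and miRNA values are RPM per sequence as the authors deposited them, and the spike-in values are counts as deposited. Per the submitters' processing notes, Bowtie was used with the builds mm10 and hg38; the role of hg38, the adapter removal and the rule that admitted a row to the piRNA table are not given in the sources used here. Dividing by the smallest step gave whole reads for 100% of piRNA values (tolerance 0.01 read), with library denominators of 1924201 to 3347735 reads. Intervals are not given for single libraries, and depth limits a member near 1 read (0.299 to 0.520 RPM).

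Rows of 23 to 25 nt were summed per library, and sums and base shares were compared by exact permutation of oxidation labels within inputs (216 arrangements) or of signs within libraries. Single rows averaging 5 RPM or more were fitted with limma 3.58.1 in R 4.3.3 on log2(RPM + 1) over the 6 groups, for all 22726 rows of that level, with Benjamini-Hochberg adjustment at 0.05. In a fold change on this scale low sequences are understated. edgeR 4.0.16 on the recovered reads was an alternative, as were other pseudocounts, filters, scalings, a replicate block and leaving out each library. On simulated data limma called 10%, 74%, 100% and 100% of rows changed 1.5-, 2-, 4- and 8-fold in the oxidation comparison over 22726 rows (50 rows each). All simulated libraries had the same spread and none of the losses of whole sequences seen at 10 ng after oxidation. The shares may therefore not hold for the real libraries.

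The named sequences followed a rule: among members of at least 5 RPM, the highest of each group sharing 20 bases, the 6 with the highest mean before oxidation, the 6 lowest and 6 highest oxidation changes among called members without overlap at any input, the 3 smallest interaction p-values, and the most abundant longer row of the 4 highest members with a shared start. Members, lists and tests were chosen with earlier results of these data known, and the triplet TGG was chosen after the longer rows had been seen. Of the starts of tested members, 8 were passed over in naming and are not reported here. Sequences were matched to GENCODE M21 transcripts on both strands; no genome was used.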

Additional observations from a re-analysis of the deposited data

Results flagged for a closer look

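In several class values the 10 ng libraries moved against the 50 and 100 ng libraries. In the share of piRNA RPM and in the ratio, every library of an input lay on one side of its counterparts. The share of piRNA RPM in members differed after against before oxidation by 0.289 points at 10 ng, -0.441 at 50 ng and -0.609 at 100 ng. The log2 ratio to 26 to 32 nt rows differed by 0.0737, -0.133 and -0.184. The share with a start shared with a longer row differed by -3.67, 0.126 and 0.273 points. At 50 ng its libraries overlapped, with 93.64 and 93.06% after oxidation and 93.12 and 93.33% before it. These differences between inputs were not tested. Without the members followed by TGG, a group noticed in members chosen for their rise, the log2 ratio was below 0 at all 3 inputs.

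In 9 named sequences the interaction of oxidation with input was called by limma over all tested rows. The oxidation change at 10 ng minus that at 100 ng was log2 -1.85 in top1, -1.86 in top3, -2.22 in top4, -3.25 in down3 and -0.811 in pair2. It was -5.41, -5.59 and -5.62 in int1, int2 and int3, which had the smallest interaction p-values, and 2.51 in up3. With 1 library left out, the interaction was not called in 8 of 12 refits for up3 and for pair2 and in 1 of 12 for top1.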

How the results depend on the processing

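Replicates here are 2 technical libraries per group, and 2 libraries at 10 ng after oxidation hold few distinct members, so calls at that input rest on little. Values below pass at an unadjusted exact p under 0.05. Counting only rows of at least 5 RPM, the oxidation change reversed in the share of piRNA RPM (0.193 points) and in the log2 ratio to 26 to 32 nt rows (0.102), passed in U at base 1 (2.19 points), no longer passed in the input slope before oxidation (-0.276 points), and reversed the difference of U at base 1 from longer rows (2.59 points). The RPM sum reversed per methylated spike-in read (log2 -2.88), as a share of RPM other than miRNA (log2 -0.0894) and without members followed by TGG (log2 -0.0788). Without those members, a group chosen after the data were seen and so described without a test, U at base 1 reversed (-0.551 points), the share differed by -0.895 points, the log2 ratio by -0.268 and the shared start by -2.29 points, and 89 members were called higher. Over distinct sequences the shared start (1.56 points) and the difference in C ends (0.982 points) reversed, U at base 1 passed (2.23 points), and its difference from longer rows did not (-1.26 points). For 24 nt alone A at base 10 did not pass (-1.47 points). U at base 1 ranged from -0.0176 to 0.892 points with 1 library left out.

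Calls lower and higher numbered 17 and 23 with a filter of 50 RPM (58 members tested) and 1100 and 5 with methylated spike-ins; calls higher numbered 104 with no filter and 144 with edgeR and TMM. With 1 library left out, calls lower ranged from 238 to 504, calls higher from 181 to 306, input calls before oxidation from 0 to 162 and after it from 337 to 871, and interaction calls from 144 to 660; the highest counts came without a 10 ng library after oxidation (replicate 1: 504, 306, 156, 871 and 660; replicate 2: 449, 306, 162, 718 and 523). Input calls before oxidation were 25 with a pseudocount of 10, 4 with no filter, 53 with methylated spike-ins and 9 with the replicate number as a block over all inputs. Those after oxidation were 34 with the 50 RPM filter and 141 with no filter. Interaction calls were 165 with a pseudocount of 10, 24 with the 50 RPM filter, 18 with no filter and 99 with the replicate block. Same-numbered libraries after and before oxidation did not deviate together (correlations -0.0077, -0.013 and 0.010 at 10, 50 and 100 ng). These values cannot exclude a pairing, because differences between technical libraries can be mostly counting noise. The replicate block gave 273 lower and 197 higher calls and changed no oxidation call of the named sequences. Under it the RPM sum, A at base 10 and ends in U, which passed without it, reached p = 0.0312 (exact, the smallest of 64 sign arrangements) and did not pass when adjusted over the 7 values (0.0729). Under methylated spike-ins top5 (log2 -1.39) and pair2 (log2 -1.30) reversed and up5 (log2 0.27, adjusted p = 0.320) was not called. The cause of these moves was not tested, beyond the fewer rows tested under a stricter filter.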
